A study of Mus musculus with 33 samples.

Results

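Chemokine ligands are the small secreted proteins whose gradients steer migrating cells. Here they are every gene whose symbol begins with Ccl, Cxcl or Cx3cl followed by a number, at most with 1 letter after it. The rule found 43 of 31053 gene rows, which carry 38 distinct symbols because 5 symbols stand on 2 rows each. Of the 43 rows, 23 reached at least 20 unique molecular identifiers (UMIs, each marking 1 captured transcript) in at least 1 cell class of 1 library, and 20 did not. Ccl6 stood just inside this limit with 20 UMIs and Ccl12 just outside it with 15 UMIs.

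Chemokines are named for the spacing of their first cysteines, and they act through G protein-coupled receptors on leukocytes and other cells. In the gut wall, fibroblasts, vessel walls and glia are known sources beside the immune cells themselves. CXC ligands with an ELR motif draw neutrophils, Cxcl9 and Cxcl10 draw T cells through Cxcr3, and Ccl2, Ccl7, Ccl8 and Ccl11 draw monocytes or eosinophils. Cxcl12, Cxcl13, Ccl19 and Ccl21a place lymphocytes and stem cells in resting tissue. Atypical receptors bind ligands without this signalling and can remove them.

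The study sorted colon and small intestinal mesenchyme of adult PdgfraH2BeGFP mice of both sexes, in which the Pdgfra locus drives a nuclear green fluorescent protein (GFP). Of its 33 samples, the 3 single-cell libraries of colon were analysed. There were 2 GFP-low libraries (genotype PdgfraH2BeGFP, untreated, unstained cells sorted for low GFP) and 1 whole mesenchyme library (genotype given as control, untreated, cells stained and sorted as EpCAM-negative and CD45-negative). The outer muscle layer had been removed, no limits of the GFP gates were at hand, and the labels do not say whether the GFP-low libraries came from separate animals. The tests below compare classes within each library. Their p-values therefore measure how far such a class difference varies from library to library, a spread which may be technical.

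Cells with at least 1000 UMIs, 500 genes and at most 20% mitochondrial UMIs numbered 4834 and 6025 in GFP-low replicates 1 and 2, and 6793 in whole mesenchyme. Their median depths were 6446.5, 7025 and 4429 UMIs, and the files held 39190629, 52313765 and 41863444 UMIs. The libraries shared 6 to 11 cell barcodes by pair, where 4.29 to 6.02 were expected from chance alone. The doublet caller marked 2 or 3 cells per library and so did not work. Clusters were made without any chemokine, receptor or listed gene and were named by markers, so that a name means resemblance. The fibroblast classes differed in their defining markers, with Adamdec1 at 11158, 12562 and 13669 CPM (UMIs scaled by all UMIs of a class) in Adamdec1 fibroblasts and at 297, 198 and 634 in Cd81-high fibroblasts. These markers are not particular to the 2 classes, since in whole mesenchyme telocytes held 10529 and smooth muscle 8515 of Adamdec1, while Cd81 stood at 806 in blood endothelium and 802 in glia, against 477 in Cd81-high fibroblasts. Stress and immune genes led some named clusters, among them Mt2, Maff and Il6 in Cd81-high cluster 0 and C3 and Cfb in Cd81-high cluster 3.

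Cd81-high fibroblasts made up 2888, 4135 and 477 cells of GFP-low replicate 1, GFP-low replicate 2 and whole mesenchyme. Adamdec1 fibroblasts, the class low in Cd81, made up 1193, 1384 and 3352 cells. Telocytes, the Pdgfra-high cells under the epithelium, numbered 24, 14 and 1579. Whole mesenchyme alone held at least 20 cells resembling blood endothelium (799), smooth muscle or myofibroblasts (151), pericytes (83), lymphatic endothelium (60) and enteric glia (65). The GFP-low libraries had 83 and 35 T or innate lymphoid cells and the CD45-negative sort 10. These are numbers of sorted cells and not shares of the tissue. Another 620, 426 and 205 shallow cells stayed unnamed.

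Levels below are in CPM. The kit counts the 3′ end of each transcript once, so levels of different genes were not divided by gene length. In whole mesenchyme, 20 members had at least 20 UMIs in a class. Among the classes that reached this number for a member, its highest level lay in Adamdec1 fibroblasts for 10, telocytes for 4, Cd81-high fibroblasts for 3, lymphatic endothelium for 1 and enteric glia for 2. Ccl19 and Ccl4 reached it in Adamdec1 fibroblasts alone, so they have no order, and the intervals of the first and second class overlapped for Cxcl10, Cxcl5, Ccl27a and Cx3cl1. On fewer UMIs, other classes stood higher for some members. Ccl19 was highest in pericytes (28.9 on 8 UMIs) and Ccl5 in glia (20.7 on 6 UMIs). Ccl25 was highest in lymphatic endothelium (19.0 on 4 UMIs), followed by pericytes (14.5 on 4 UMIs). Ccl27a was highest in smooth muscle (15.4 on 10 UMIs).

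**Figure D1:**
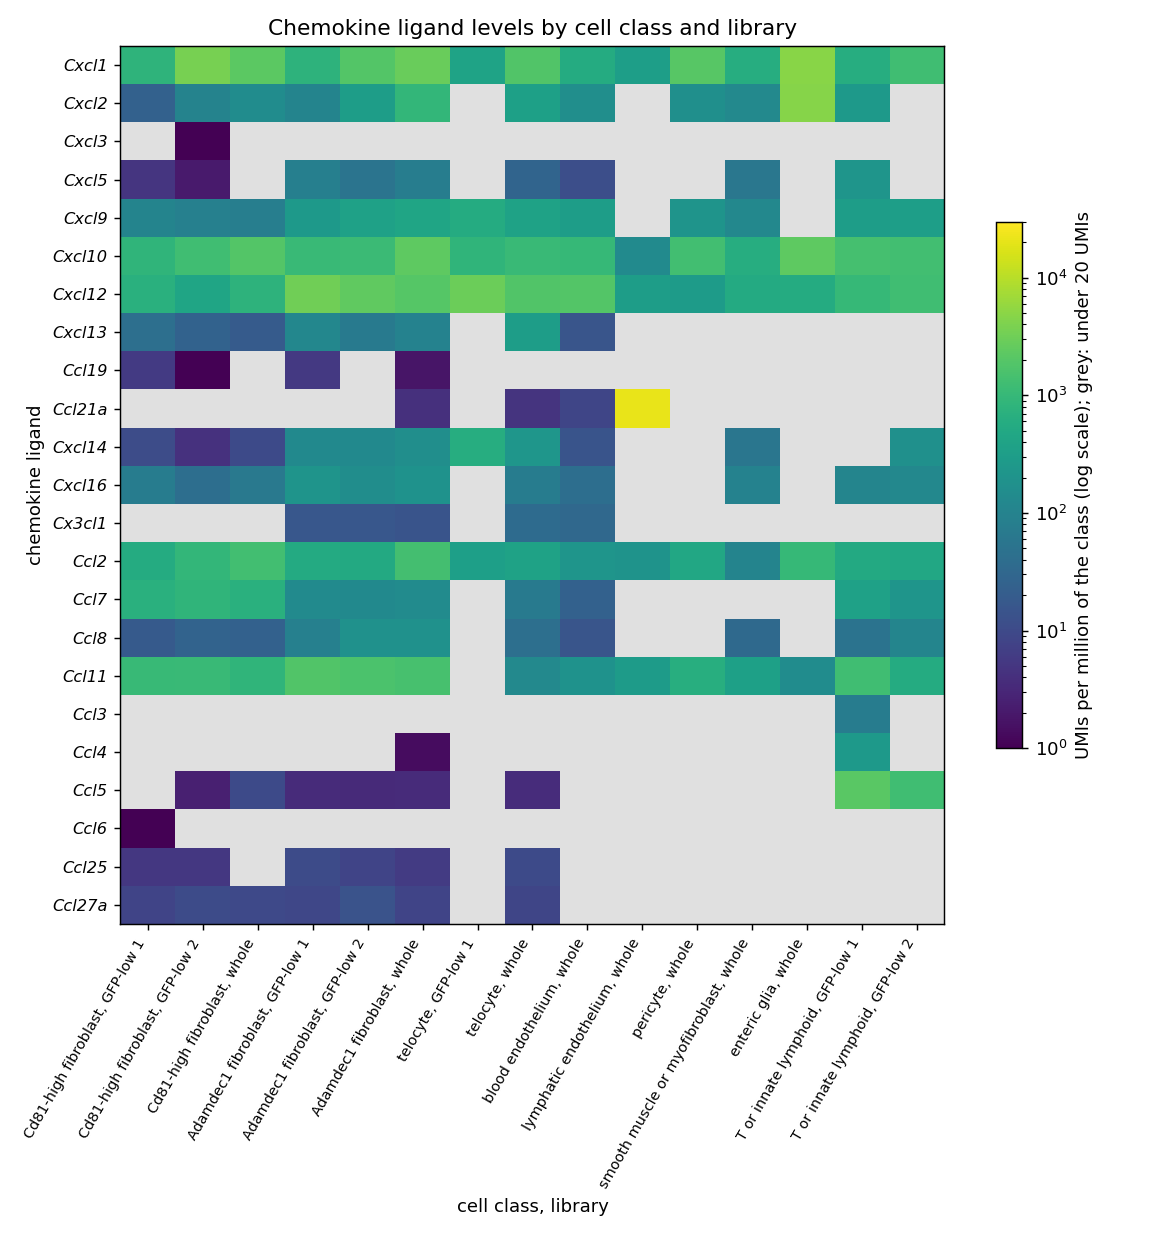
Levels of the 23 reported chemokine ligands (rows) in each cell class and library with at least 20 cells (columns), as CPM on a log colour scale. Grey marks values from under 20 UMIs and the darkest colour also holds levels under 1. Ccl21a is bright in 1 column, while Cxcl1, Cxcl10 and Ccl2 are seen in every column.

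The homeostatic ligand Cxcl12, which holds Cxcr4-bearing cells near stroma, was the leading chemokine of Adamdec1 fibroblasts in both GFP-low libraries. Its level there was 3186 and 2469 in GFP-low replicates 1 and 2 and 2007 in whole mesenchyme. After every cell was thinned to 1000 UMIs, 91.9%, 86.6% and 79.2% of Adamdec1 fibroblasts held at least 1 Cxcl12 UMI. In whole mesenchyme, telocytes reached 1848 and blood endothelium 1885 (95% exact Poisson interval 1832 to 1939), so that these vessel and stromal classes lay close together. Intervals here and below cover counting error only. Lymphatic endothelium, pericytes, enteric glia and smooth muscle lay lower, between 289 and 574.

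Ccl21a, which guides Ccr7-bearing dendritic cells and T cells into lymph vessels, was almost a single-class gene. Lymphatic endothelium, 60 cells of 1 library, held 21718 CPM (interval 21092 to 22357), which was 93.0% of its chemokine UMIs. Among the classes with at least 20 Ccl21a UMIs, blood endothelium came next at 8.52. After thinning, 96.7% of lymphatic cells had a Ccl21a UMI, against 1.00% of blood endothelial cells, at median depths of 3209 and 2903 UMIs. The near-identical Ccl21b and Ccl21c rows held 0 to 12 UMIs in all, so reads may be split or lost between these copies and the level of Ccl21a is uncertain to that extent. Ccl19, the other Ccr7 ligand, also has a copy in the files and reached no more than 5.70 in any class with 20 of its UMIs.

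The B cell attractant Cxcl13 was highest in telocytes within whole mesenchyme, at 311 (interval 297 to 324). Adamdec1 fibroblasts followed at 96.3 in the same library and Cd81-high fibroblasts at 19.1. GFP-low replicate 1 had the other order, with 30.0 in its 24 telocytes on 5 UMIs (interval 9.74 to 70.0) and 119.8 in Adamdec1 fibroblasts (interval 112 to 128). Cxcl13 sat in few cells of whole mesenchyme: 16.3% of telocytes had a UMI after thinning, and the top 10% of telocytes held 73.4% of the Cxcl13 UMIs. Cxcl14, a ligand of epithelia and stroma, was likewise highest in telocytes, at 225, followed by Adamdec1 fibroblasts at 163. The 24 telocytes of GFP-low replicate 1 held 606 CPM of Cxcl14 (interval 494 to 736). The membrane-bound ligand Cx3cl1 stood at 36.1 in telocytes and 32.1 in blood endothelium, and these intervals overlapped (31.7 to 40.9 and 25.6 to 39.8).

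Among the cell classes, enteric glia, the support cells of the gut's nerves, carried the most Cxcl1 and Cxcl2, both ligands of the neutrophil receptor Cxcr2. Their Cxcl1 level was 4860 (interval 4610 to 5121), against 2888 in Adamdec1 fibroblasts of the same library. Their Cxcl2 level was 4677 (interval 4431 to 4933), against 937 in Adamdec1 fibroblasts. After thinning, 61.5% of glia held both transcripts, against 22.8% of Adamdec1 fibroblasts, 8.4% of telocytes and 6.5% of Cd81-high fibroblasts. Before thinning these shares were 78.5%, 37.2%, 17.6% and 18.4%. Glia are 65 cells of 1 library, so these levels have no replicate check. Beside them, the 17 dissociation response genes, which cells switch on during digestion, summed to 62781 in glia and 42198 in Adamdec1 fibroblasts. Their part in these levels was not tested.

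**Figure D2:**
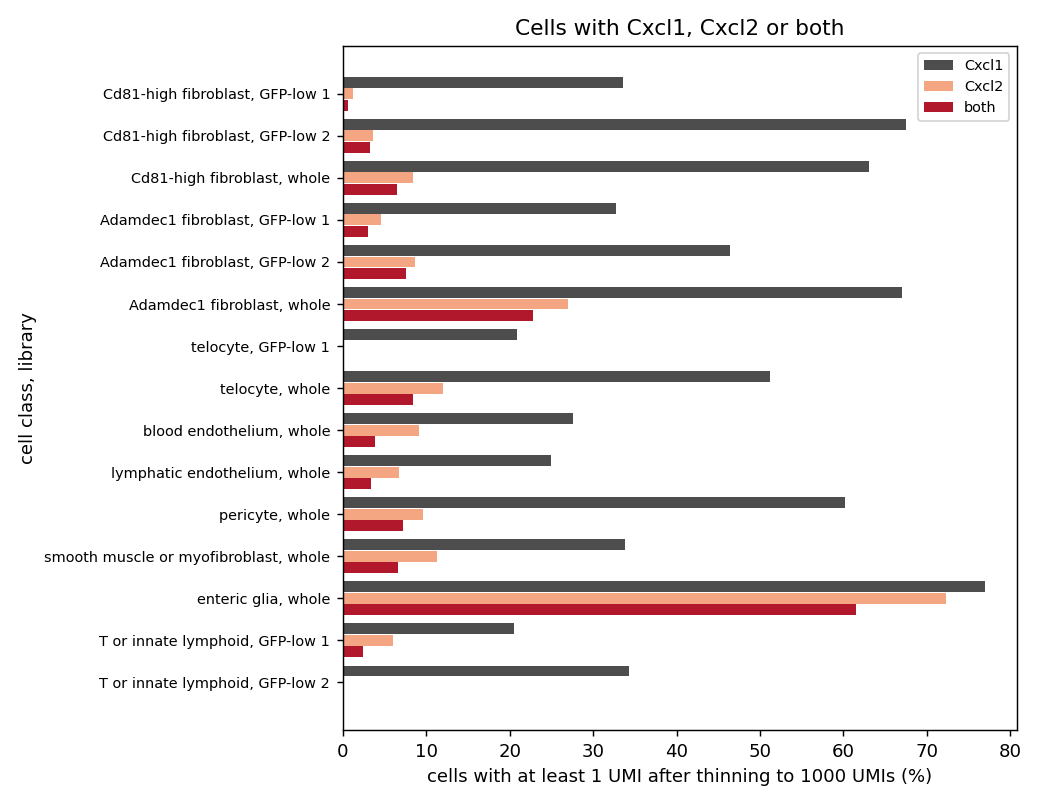
Percent of cells with at least 1 UMI of Cxcl1, of Cxcl2 and of both (bars) in each cell class and library, after each cell was thinned to 1000 UMIs. Enteric glia stand at 61.5% for both, and Cd81-high fibroblasts between 0.7% and 6.5%.

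T or innate lymphoid cells held Ccl5 in both GFP-low libraries, and Ccl4 and Ccl3 mostly in replicate 1. These are inflammatory CC ligands that draw T cells and macrophages. Ccl5 reached 2155 and 1252 in these cells of GFP-low replicates 1 and 2, and no more than 10.1 in either fibroblast class. Ccl4 reached 255 and Ccl3 74.9 in replicate 1, with only 10.8% and 2.41% of the 83 cells holding a UMI. In the 35 cells of replicate 2, Ccl4 stood at 30.4 on 7 UMIs and Ccl3 had 0 UMIs, which allows up to 16.0 (upper bound of the interval). The Ccl3 and Ccl4 genes overlap in the RefSeq table, so their counts are uncertain. The leukocyte gene Ptprc, which encodes CD45, stood at 481 and 469 in these cells, and the fibroblast gene Adamdec1 at 4398 and 6420.

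Free RNA and mixed droplets can put fibroblast transcripts into the small classes. The free pool was measured in barcodes with 10 to 100 UMIs, and each level was set against the level expected if all Adamdec1 RNA of a class came from that pool. By this measure Ccl5 in T or innate lymphoid cells was 54.3 and 224 times the expected level, Ccl4 31.5 times and Ccl3 25.5 times. Cxcl1, Cxcl12, Ccl2 and Ccl11 in those cells were below the expected level in replicate 1, at 0.17, 0.39, 0.28 and 0.28 times. However, Adamdec1 in those cells, at 4398 and 6420, stood above its level in the pool itself. The assumption therefore fails for them, their expected levels are too high, and their ratios under 1 have no reading. Ccl21a was 879 times the expected level in lymphatic endothelium and 0.33 times in blood endothelium. Cxcl12 stood at 1.08 times in lymphatic endothelium and 0.96 times in pericytes. In glia, Cxcl2 was 27.1 times, Cxcl1 6.99 times, Cxcl10 4.95 times and Ccl2 3.00 times the expected level. Blood endothelium exceeded it for Cx3cl1 (18.1 times), Cxcl12 (6.28 times), Cxcl9 (4.29 times) and Cxcl10 (2.64 times). Pericytes exceeded it for Cxcl1 (3.66 times), Cxcl10 (3.55 times), Cxcl9 (2.94 times) and Ccl11 (2.68 times). In smooth muscle, the 11 members with 20 UMIs lay between 0.08 and 1.09 times the expected level. Adamdec1 itself stood at 8515 there, so the assumption that all of it is free RNA may not hold, and ratios near or under 1 do not tell free RNA from expression in any class.

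The series sorted Pdgfra-low cells by the surface protein CD81, so the first test compared Cd81-high with Adamdec1 fibroblasts. Most of the tested chemokines were lower in Cd81-high fibroblasts, among them Cxcl12, Cxcl14 and Cxcl5, and Ccl7 was higher. Counts were summed per library and class and tested with edgeR's quasi-likelihood test, with the library as a block and Benjamini-Hochberg adjustment over all 6239 tested genes. Of the 43 members 19 passed the filter on low counts. Of these 1 rose in Cd81-high fibroblasts and 11 fell, while 7 did not pass the 0.05 threshold. The 11 include Cx3cl1, which passed the filter through Adamdec1 fibroblasts alone. Of all tested genes 13.6% rose and 14.6% fell (28.2% in either direction). The members' median difference was -1.57 on the log2 scale and that of all tested genes 0.00. Cells had been assigned from other genes of the same cells, so a member correlated with those genes can differ because of how the classes were drawn. Clusters 3, 5 and 12 held most Cd81-high cells of GFP-low replicate 1, clusters 0 and 2 those of replicate 2, and clusters 3, 5, 2 and 0 those of whole mesenchyme. Adamdec1 fibroblasts were mostly cluster 8 in replicate 1, clusters 7 and 11 in replicate 2 and clusters 1, 9 and 7 in whole mesenchyme.

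Ccl7, a monocyte attractant that binds Ccr2, stood at 696, 866 and 707 CPM in Cd81-high fibroblasts of GFP-low replicate 1, GFP-low replicate 2 and whole mesenchyme. Adamdec1 fibroblasts of the same libraries had 140, 134 and 143. All 3 Cd81-high values lay far above all 3 Adamdec1 values. Here and below, the share of all tested genes whose groups do not overlap was not counted. The log2 difference was 2.52 (SE 0.13, edgeR adjusted p = 1.57e-06), or 5.75-fold.

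None of its tested chromosomal neighbours rose. Ccl2, Ccl7, Ccl11, Ccl12 and Ccl8 lie side by side on chromosome 11 (GRCm38.p6), from position 82035577 at the start of Ccl2 to 82116799 at the end of Ccl8. Ccl2, the main ligand of Ccr2, had 568, 924 and 1318 in Cd81-high fibroblasts, against 543, 518 and 1391 in Adamdec1 fibroblasts. These groups overlap, and the difference of 0.36 (SE 0.19) did not pass (edgeR adjusted p = 0.199), although it did without whole mesenchyme (0.59, adjusted p = 0.00884). Ccl11, the eosinophil attractant eotaxin, had 1051, 1071 and 852 in Cd81-high fibroblasts, against 1848, 1621 and 1475 in Adamdec1 fibroblasts. It fell by 0.65 on the log2 scale (SE 0.12, edgeR adjusted p = 0.00277), and the call was lost without the library block (adjusted p = 0.125). Ccl8, another monocyte attractant, had 18.8, 27.1 and 24.2 in Cd81-high fibroblasts, against 90.4, 186 and 183 in Adamdec1 fibroblasts. It fell by 2.53 (SE 0.14, edgeR adjusted p = 2.08e-06). Ccl12 had at most 15 UMIs in a class and was not tested.

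Among the neutrophil-attracting ligands 2 of the 3 tested fell and none rose. Cxcl5 had 4.82, 2.12 and 1.01 in Cd81-high fibroblasts, against 87.0, 51.9 and 80.5 in Adamdec1 fibroblasts (log2 difference -4.41, SE 0.20, edgeR adjusted p = 9.2e-07). Cxcl2 had 24.1, 98.9 and 151 in Cd81-high fibroblasts, against 104, 309 and 937 in Adamdec1 fibroblasts. Each library had less Cxcl2 in its Cd81-high cells, but the 2 ranges overlap (log2 difference -2.03, SE 0.19, edgeR adjusted p = 5.48e-05). Without the library block this call was lost (edgeR adjusted p = 0.167). Cxcl1, which binds the same receptor as Cxcl2, had 803, 3657 and 2246 in Cd81-high fibroblasts, against 779.6, 1889 and 2888 in Adamdec1 fibroblasts. Its difference of 0.29 (SE 0.24) did not pass (edgeR adjusted p = 0.404), and without whole mesenchyme it was 0.64 and passed (adjusted p = 0.0114).

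Both Cxcr3 ligands are known interferon targets, and 1 of them passed the test. Cxcl9 had 104, 90.4 and 83.2 in Cd81-high fibroblasts, against 250.1, 362 and 431 in Adamdec1 fibroblasts, and fell by 1.78 (SE 0.20, edgeR adjusted p = 0.000141). Cxcl10 had 845, 1257 and 1874 in Cd81-high fibroblasts, against 1065, 1120.2 and 2355 in Adamdec1 fibroblasts. That difference of -0.08 (SE 0.14) did not pass (edgeR adjusted p = 0.738). Whether the differences of these 2 genes differ from each other was not tested. Of 10 other interferon response genes 8 rose in Cd81-high fibroblasts, 1 fell and 1 did not pass, with a median of 1.10. Ifit1, an RNA sensor induced by interferon, had 95.3, 162 and 59.7 in Cd81-high fibroblasts, against 15.4, 28.0 and 15.7 in Adamdec1 fibroblasts (log2 difference 2.47, SE 0.16, edgeR adjusted p = 4.54e-06). Rsad2, an antiviral enzyme, rose by 2.77 (SE 0.26, edgeR adjusted p = 5.26e-05), and Ifit3, of the same family as Ifit1, rose too (SE 0.17, edgeR adjusted p = 2.86e-05).

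Of the homeostatic and lymphoid ligands 3 of 10 rows were tested, of which 2 fell in Cd81-high fibroblasts and 1 did not pass. Cxcl12 had 698, 430 and 777 in Cd81-high fibroblasts, against 3186, 2469 and 2007 in Adamdec1 fibroblasts (log2 difference -1.94, SE 0.18, edgeR adjusted p = 5.48e-05). Cxcl13 had 43.0, 25.5 and 19.1 in Cd81-high fibroblasts, against 119.8, 70.0 and 96.3 in Adamdec1 fibroblasts (-1.57, SE 0.17, edgeR adjusted p = 0.000115). Neither pair of ranges overlapped. Ccl19 had 5.70, 0.948 and 2.35 in Cd81-high fibroblasts, against 5.58, 1.57 and 1.81 in Adamdec1 fibroblasts, and did not pass.

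Of the 4 other CXC and CX3C ligands the 3 tested fell, and Cxcl17 was too low to test. Cx3cl1 had 0.519, 0.261 and 1.34 in Cd81-high fibroblasts, on 10, 8 and 4 UMIs, against 16.2, 16.2 and 14.3 in Adamdec1 fibroblasts (-5.06, SE 0.29, edgeR adjusted p = 2.62e-06). It passed the filter on low counts through Adamdec1 fibroblasts alone, so only a fall could be seen. Cxcl14 had 11.1, 4.38 and 10.1 in Cd81-high fibroblasts, against 132, 134 and 163 in Adamdec1 fibroblasts (-4.08, SE 0.23, edgeR adjusted p = 2.16e-06). Cxcl16, a membrane-bound ligand of Cxcr6, had 74.8, 41.9 and 63.4 in Cd81-high fibroblasts, against 208, 156 and 190.3 in Adamdec1 fibroblasts (-1.57, SE 0.11, edgeR adjusted p = 7.39e-06). The groups did not overlap for these 3 genes, and the share of all tested genes without overlap was not counted.

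The mucosal ligands were low and none of the 2 tested passed. Ccl25, which draws Ccr9-bearing T cells to the gut, had 5.29, 5.30 and 6.37 in Cd81-high fibroblasts, against 10.4, 8.29 and 6.06 in Adamdec1 fibroblasts (edgeR adjusted p = 0.0716, or 0.0121 without whole mesenchyme). Ccl27a had 8.24, 10.7 and 9.73 in Cd81-high fibroblasts, against 8.93, 14.2 and 8.33 in Adamdec1 fibroblasts. Ccl5 had 0.674, 2.48 and 10.1 in Cd81-high fibroblasts, against 3.60, 3.36 and 3.50 in Adamdec1 fibroblasts. Ccl4 had 6 UMIs in all Cd81-high fibroblasts together and 41 in Adamdec1 fibroblasts, and its fall of 2.50 (SE 0.76, edgeR adjusted p = 0.0365) ended without GFP-low replicate 1 (-0.85, adjusted p = 0.706). Markers of macrophages or dendritic cells, 10 genes, summed to 10.5, 8.30 and 14.4 in Cd81-high fibroblasts and to 36.8, 22.9 and 21.4 in Adamdec1 fibroblasts. Their part in the Ccl4 and Ccl5 values was not tested.

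**Figure D3:**
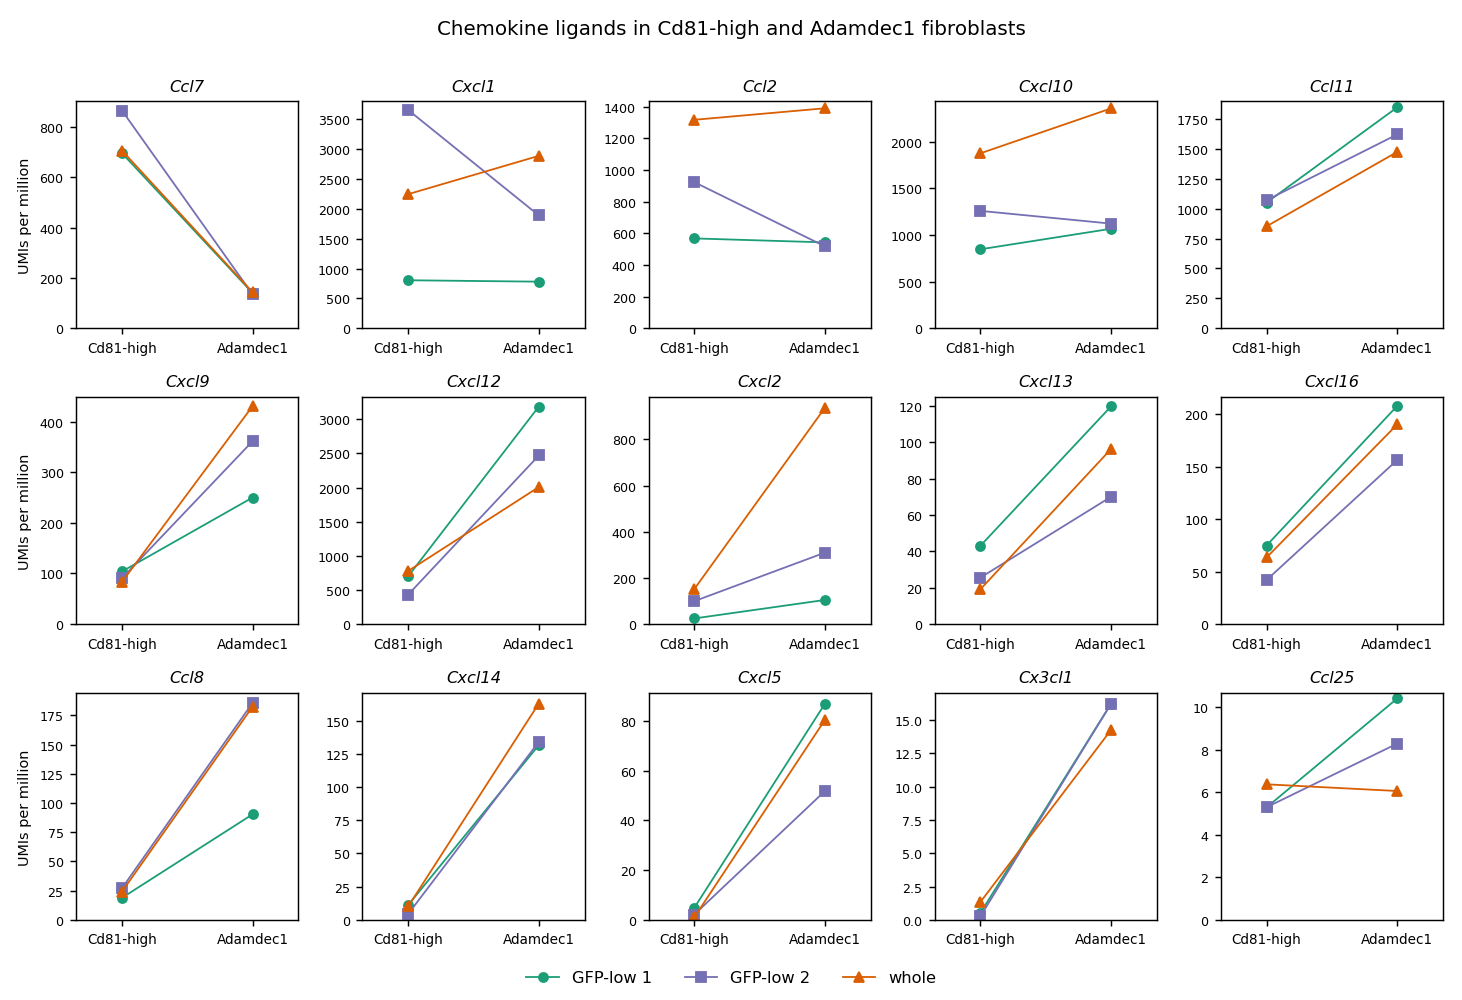
CPM of 15 of the 19 tested chemokine ligands in Cd81-high (left) and Adamdec1 (right) fibroblasts, with 1 line per library. The 3 Ccl7 lines fall from left to right, those of Cxcl12, Cxcl14 and Cxcl5 climb, and those of Cxcl1, Ccl2 and Cxcl10 run in different directions.

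All 4 atypical chemokine receptors rose in Cd81-high fibroblasts, with a median difference of 4.29. Ackr3, which takes up Cxcl12, had 248, 92.6 and 146 in Cd81-high fibroblasts, against 149, 72.8 and 89.2 in Adamdec1 fibroblasts (0.69, SE 0.10, edgeR adjusted p = 0.000921), and these ranges overlap. Ackr4, which binds Ccl19, Ccl21a and Ccl25, had 577, 688 and 485 in Cd81-high fibroblasts, against 20.0, 40.3 and 7.46 in Adamdec1 fibroblasts (5.03, SE 0.30, edgeR adjusted p = 3.2e-06). Ackr2, which binds inflammatory CC ligands, had 8.40, 10.5 and 10.4 in Cd81-high fibroblasts, against 0.248, 0 and 0.175 in Adamdec1 fibroblasts (edgeR adjusted p = 5.1e-06). Ackr2 passed the filter on low counts through Cd81-high fibroblasts alone, so only a rise could be seen. Ackr1, which binds ligands of both families, had 31.6, 20.8 and 23.8 in Cd81-high fibroblasts, against 3.47, 2.24 and 1.46 in Adamdec1 fibroblasts (3.54, SE 0.18, edgeR adjusted p = 1.25e-06). Of 19 other chemokine receptors 1 was high enough to test, Ccrl2, a receptor that does not signal to chemokines, and it fell by 0.45 (SE 0.14, edgeR adjusted p = 0.0427). Among the ligands outside the name rule, Pf4 fell by 3.91 (SE 0.43, edgeR adjusted p = 0.000139) on 9 Cd81-high UMIs against 99 in Adamdec1 fibroblasts. Pf4 passed the filter through Adamdec1 fibroblasts alone.

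Of 22 NF-kB pathway and feedback genes 4 rose in Cd81-high fibroblasts, 5 fell and 13 did not pass. Of all tested genes 13.6% rose and 14.6% fell (28.2% in either direction). Il1r1, the interleukin-1 receptor, had 33.8, 24.2 and 29.5 in Cd81-high fibroblasts, against 174, 146 and 148 in Adamdec1 fibroblasts (-2.34, SE 0.10, edgeR adjusted p = 5.38e-07). Il17ra, a receptor chain for interleukin-17, rose by 0.96 (SE 0.16, edgeR adjusted p = 0.00146), and Nfkbiz, an inducible NF-kB cofactor, also rose by 0.96 (SE 0.20, edgeR adjusted p = 0.0064). Of 17 dissociation response genes 7 rose, 1 fell and 9 did not pass, with a median of 0.45. Myc rose by 2.37 (SE 0.29), Atf3 by 1.15 (SE 0.18) and Nr4a1 by 0.74 (SE 0.19), with edgeR adjusted p = 0.000257, 0.00136 and 0.0172. This list summed to 37370, 50641 and 41505 in Cd81-high fibroblasts and to 29687, 32694 and 42198 in Adamdec1 fibroblasts, and its part in the chemokine differences was not tested.

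Between several pairs of clusters of 1 class, some chemokines were higher where this list was higher and others were not, which is given here as a description without a test. Among Cd81-high cells of GFP-low replicate 2, Cxcl1 stood at 4483 in cluster 0 and 957 in cluster 2, Cxcl10 at 1611 and 458, Ccl2 at 1092 and 176, and Ccl7 at 1005 and 203. The dissociation list summed to 60997 in cluster 0 and 24474.5 in cluster 2. Ccl11 stood at 1120.4 and 944 and Cxcl12 at 398 and 590.2, so these 2 did not share the gap. GFP-low replicate 1 showed the like for clusters 3 and 5 with 1121 and 284 of Cxcl1 beside list sums of 50951 and 21980, at close median depths of 7386 and 6763 UMIs. Whole mesenchyme had 2456 and 837 of Cxcl1 in these clusters beside sums of 45118 and 29937. Cluster 12 went against this. In GFP-low replicate 2 it held more Cxcl1 (5095) and Ccl2 (2009) than cluster 0 at a lower list sum (38200.0), and in whole mesenchyme its Cxcl1 of 4342 at a sum of 36799 exceeded that of cluster 3.

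Pairs of Adamdec1 clusters had the like. In GFP-low replicate 2, Cxcl1 stood at 2876 in cluster 11 and 275 in cluster 7, Cxcl10 at 1607 and 350.1, and Cxcl2 at 428 and 6.30. The list summed to 49276 in cluster 11 and 9052 in cluster 7, the lowest sum of any fibroblast cluster. Cxcl12 stood at 2196 and 2979.5 and Ccl11 at 1781 and 1394. In whole mesenchyme, Cxcl1 stood at 3220.1 in cluster 1 and 242 in cluster 7, beside sums of 45423 and 11247. Cluster 7 cells thus had low Cxcl1 in every library, at 193, 275 and 242, and high Cxcl12, at 2861, 2979.5 and 2795. The dissociation response was measured in the same cells as the chemokines, and its part in their levels was not tested.

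**Figure D4:**
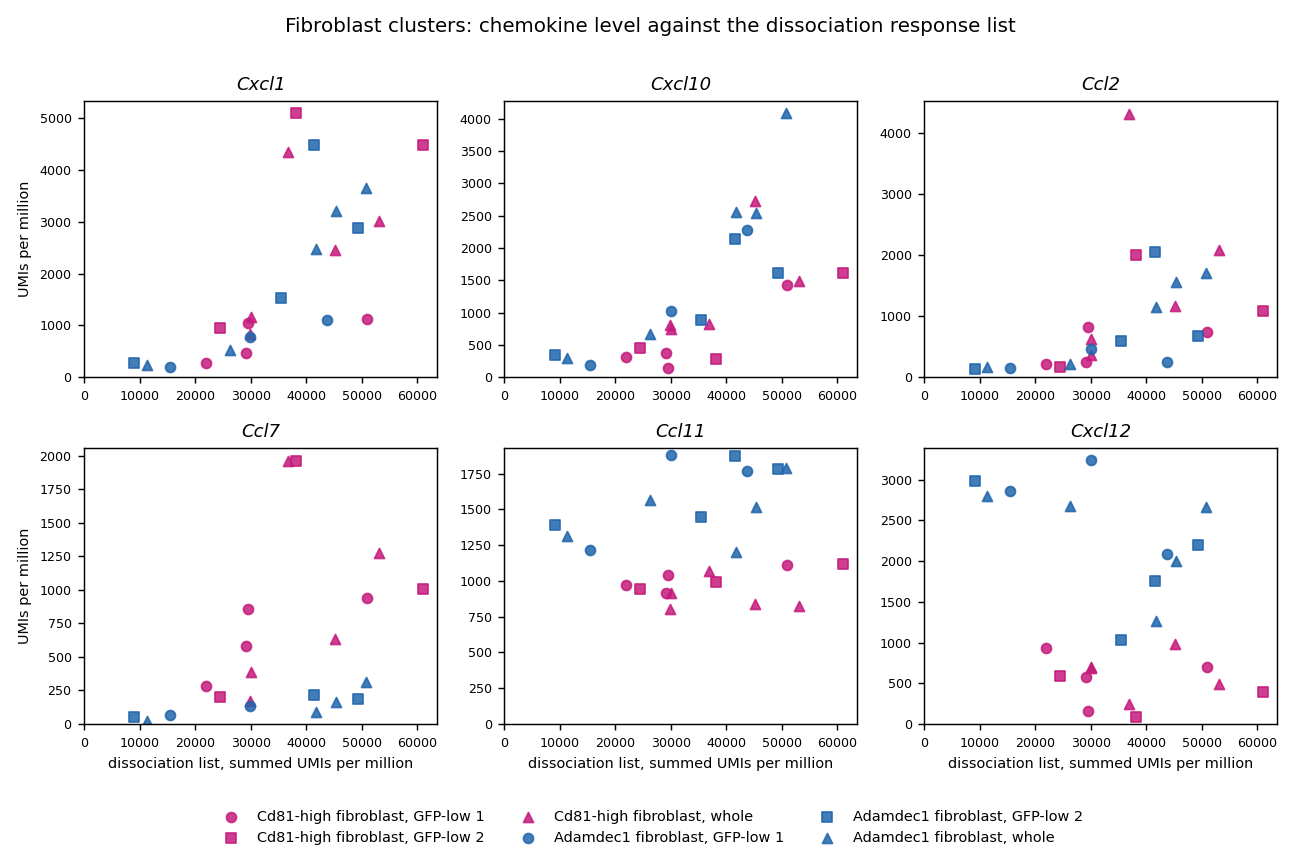
Level of 6 chemokine ligands (vertical axis, CPM) against the summed level of the 17 dissociation response genes (horizontal axis, CPM), with 1 point per fibroblast cluster and library that has at least 20 UMIs of the gene. Cxcl1, Cxcl10 and Ccl2 are low at the left edge in both classes, while Cxcl12 and Ccl11 separate the classes by colour.

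Promoter letters of Cxcl1, Cxcl2 and Cxcl10 are shown because their levels differed between clusters of 1 class. They are also textbook targets of NF-kB or interferon. Those of Cxcl3 are shown because it lies in the same region of chromosome 5 as Cxcl1 and Cxcl2. Sequences are from RefSeq (GRCm38.p6), given on the gene's strand, with positions counted back from the start of the gene. Capitals mark matches on either strand to the kB consensus, to a second kB form (GGG, any 2 bases, then TTTCC) or to the core of an interferon-response element (GAAA, any 2 bases, then GAAA). Matches of both kB forms can overlap, as on the 2 strands of the Cxcl1 stretch. The windows are chr5:90891125-90891204 for Cxcl1, chr5:90903779-90903858 for Cxcl2 and chr5:90785981-90786060 for Cxcl3 on the plus strand, all from 120 to 41 bases before the start, and chr5:92348980-92349109 for Cxcl10 on the minus strand, from 220 to 91 bases before it.
Cxcl1: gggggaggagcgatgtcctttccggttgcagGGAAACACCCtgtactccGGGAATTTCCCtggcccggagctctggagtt
Cxcl2: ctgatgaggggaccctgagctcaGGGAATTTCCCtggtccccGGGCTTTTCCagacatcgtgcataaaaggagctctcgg
Cxcl3: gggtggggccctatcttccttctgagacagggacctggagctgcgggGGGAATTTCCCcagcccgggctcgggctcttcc
Cxcl10: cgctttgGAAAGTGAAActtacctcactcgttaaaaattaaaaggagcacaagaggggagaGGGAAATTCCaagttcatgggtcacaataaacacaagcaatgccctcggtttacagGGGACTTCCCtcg

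Cxcl1, Cxcl2 and Cxcl3 share the same stretch GGGAATTTCCC, and Cxcl3 had only 23 UMIs in all cells. In the 250 bases before the start, the kB consensus was found for 6 of the 26 member genes with an entry (Cxcl1, Cxcl2, Cxcl3, Cxcl10, Ccl20 and Ccl9) and for 4.46% of all 27025 genes. The GGG and TTTCC form was found for 5 of the 26 and for 1.65% of all genes. The GAAA pair was found for 3 of the 26 (Cxcl10, Cxcl14 and Ccl19) and for 3.46% of all genes. A match is a description of letters and not a measured binding site.

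The Cd81-high class holds a cluster marked by Pi16 and Dpp4, genes of adventitial fibroblasts, and the second test set it against the other Cd81-high cells. Pi16-positive fibroblasts (cluster 12) numbered 376, 201 and 24 cells in GFP-low replicate 1, GFP-low replicate 2 and whole mesenchyme, against 2512, 3934 and 453 other Cd81-high cells. They carried more Ccl2, Ccl7, Cxcl1 and Cxcl2, and less Cxcl12, Cxcl10, Cxcl13 and Cxcl9. Of the 14 members that passed the filter 4 rose, 7 fell and 3 did not pass, where 7.29% of all 5159 tested genes rose and 10.3% fell (17.6% in either direction). The 7 include Cxcl14, which passed the filter through the other Cd81-high cells alone, so only a fall could be seen. The members' median was -0.48 and that of all tested genes -0.01. Without the library block none of the 4 rises passed and 4 of the falls did, so the rises rest on comparing cells within a library.

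Ccl2 had 824, 2009 and 4317 in Pi16-positive cells, against 527, 855 and 1099 in other Cd81-high cells, and rose by 1.21 (SE 0.16, edgeR adjusted p = 4.89e-05). Each library was higher in its Pi16-positive cells, and the ranges overlap. Ccl7 had 859, 1964 and 1964 in Pi16-positive cells, against 671, 796 and 615, and rose by 1.03 (SE 0.16, edgeR adjusted p = 0.000275). Cxcl2 had 40.1, 452 and 409 in Pi16-positive cells, against 21.6, 76.5 and 132 in other Cd81-high cells (1.79, SE 0.21, edgeR adjusted p = 1.47e-05). Cxcl1 had 1052, 5095 and 4342 in Pi16-positive cells, against 764, 3566 and 2093 in other Cd81-high cells (0.61, SE 0.10, edgeR adjusted p = 0.000497). For both Cxcr2 ligands GFP-low replicate 1 was far below the other libraries in both groups. Ccl11 did not pass, with 1040, 993 and 1071 in Pi16-positive cells against 1052, 1076 and 837 (-0.01, SE 0.10, edgeR adjusted p = 0.994).

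Cxcl12 had 157, 83.8 and 242 in Pi16-positive cells, against 784, 452 and 816 in other Cd81-high cells (-2.30, SE 0.12, edgeR adjusted p = 5.73e-09). Cxcl10 had 149.8, 276 and 819 in Pi16-positive cells, against 956, 1319 and 1951 (-2.17, SE 0.18, edgeR adjusted p = 2.38e-07). Cxcl9 had 36.7, 35.6 and 19.7 in Pi16-positive cells, against 114, 93.8 and 87.8 (-1.61, SE 0.13, edgeR adjusted p = 2.38e-07). These 3 sets of values do not overlap, and how often this holds over all tested genes was not counted. Cxcl13 fell by 2.47 (SE 0.22), Cxcl14 by 2.66 (SE 0.44), Cxcl16 by 0.71 (SE 0.12) and Ccl8 by 0.61 (SE 0.19), with edgeR adjusted p = 5.2e-07, 0.000364, 0.000583 and 0.0404. The Cxcl14 fall rests on 7 UMIs in Pi16-positive cells and was lost without GFP-low replicate 1 (-1.88, adjusted p = 0.0773), and that of Ccl8 was lost without GFP-low replicate 2 (-0.34, adjusted p = 0.655) or whole mesenchyme (-0.58, adjusted p = 0.0811). The Cxcl10 call was lost without the library block (-1.91, adjusted p = 0.12), and that of Cxcl16 without the block (-0.71, adjusted p = 0.189) or after thinning (-0.57, adjusted p = 0.34).

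**Figure D5:**
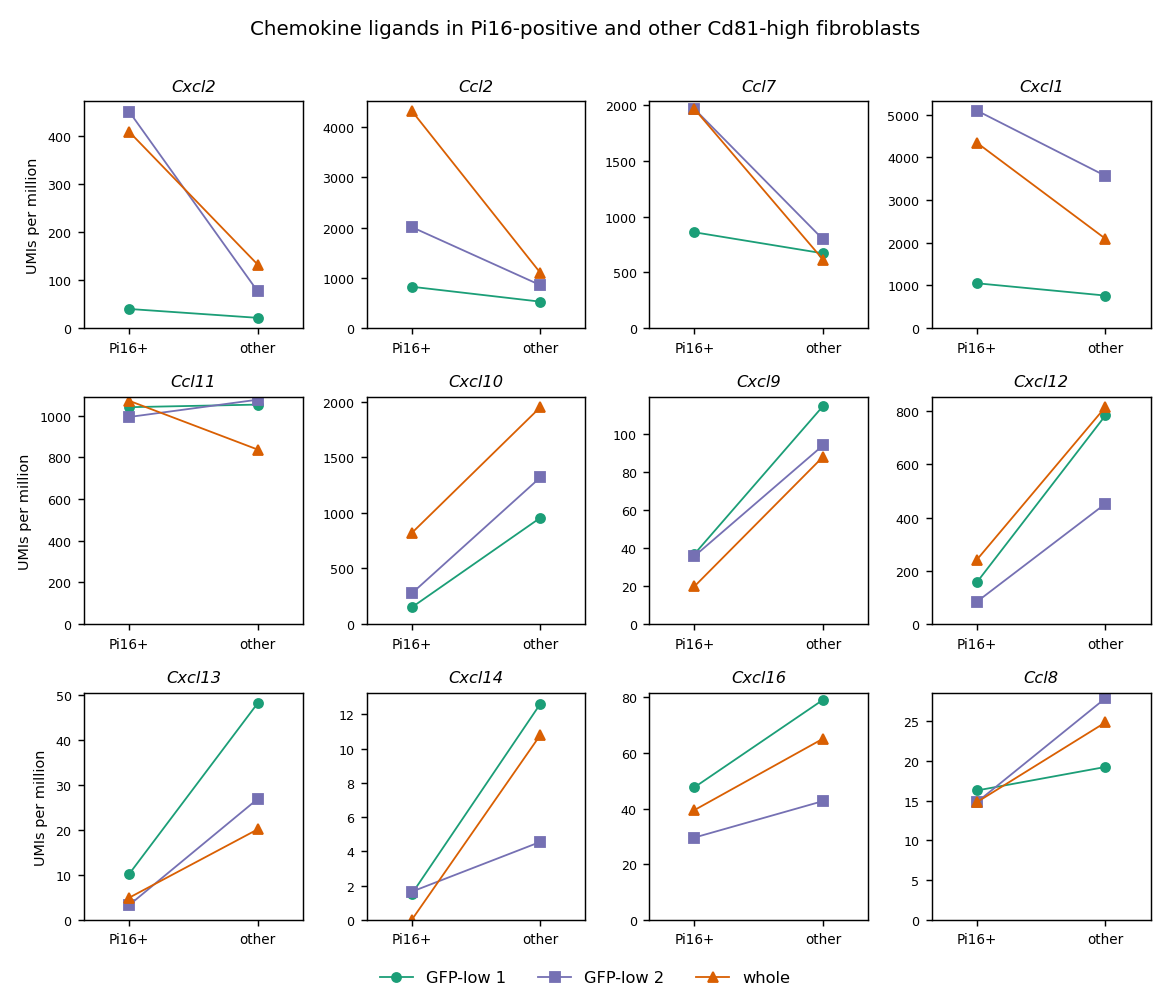
CPM of 12 of the 14 tested chemokine ligands in Pi16-positive (left) and other (right) Cd81-high fibroblasts, with 1 line per library. Cxcl2, Ccl2, Ccl7 and Cxcl1 fall from left to right in all 3 libraries, and Cxcl10, Cxcl9, Cxcl12 and Cxcl13 climb.

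The rises in Pi16-positive cells stood beside a lower dissociation response. Of its 17 genes 1 rose, 12 fell and 4 did not pass. Dnajb1 fell by 1.06 (SE 0.11), Fosb by 0.66 (SE 0.10) and Hspa1a by 0.63 (SE 0.10), with edgeR adjusted p = 3.86e-06, 0.000129 and 0.000327. The list was not lower than in every other Cd81-high cluster. It summed to 29510, 38200 and 36799 in cluster 12, against 29127, 24474.5 and 30001 in cluster 2 of the same libraries. Cluster 5 had 21980 in GFP-low replicate 1 and 29937 in whole mesenchyme. The part of this response in the chemokine differences was not tested. Of 10 interferon response genes none rose, 7 fell and 3 did not pass, among them Ifit1 with 24.6, 40.5 and 44.4 in Pi16-positive cells, against 106, 169.5 and 60.8 in other Cd81-high cells (-2.04, SE 0.16, edgeR adjusted p = 2.25e-07). Rsad2 fell by 2.77 (SE 0.25, edgeR adjusted p = 6.95e-07) and Ifit3 by 1.72 (SE 0.14, edgeR adjusted p = 2.31e-07). Of 22 NF-kB genes 4 rose, 6 fell and 12 did not pass, with a median of 0.0005, so the list did not move one way. Over all tested genes 7.29% rose and 10.3% fell. The NF-kB genes named next are among the 6 that fell. Il1r1 fell by 2.11 (SE 0.21), Birc3, an inhibitor of cell death, by 1.10 (SE 0.12) and the adaptor Myd88 by 0.97 (SE 0.12), with edgeR adjusted p = 2.33e-06, 5.72e-06 and 2.22e-05.

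Atypical receptors were concentrated further in Pi16-positive cells, where 3 of 4 rose and Ackr4 fell. Ackr3 had 599, 327 and 405 in Pi16-positive cells, against 193, 77.7 and 127 in other Cd81-high cells (1.75, SE 0.11, edgeR adjusted p = 2.55e-08). Ackr2 had 32.5, 43.8 and 29.6 in Pi16-positive cells, against 4.57, 8.38 and 9.00 (2.46, SE 0.19, edgeR adjusted p = 1.2e-07). Ackr1 had 87.0, 59.2 and 98.7 in Pi16-positive cells, against 22.8, 18.4 and 18.4 (1.83, SE 0.13, edgeR adjusted p = 7.43e-08). Ackr4 had 526, 513 and 286 in Pi16-positive cells, against 585, 699 and 500 (-0.46, SE 0.12, edgeR adjusted p = 0.0110). Ccrl2, the tested receptor outside this group, fell by 0.61 (SE 0.16, edgeR adjusted p = 0.0126).

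The sorts could be compared only without a test, since whole mesenchyme is 1 library. A gene was included with at least 20 UMIs in any 1 of the 3 libraries. It was called lower or higher where whole mesenchyme lay at least 2-fold outside both GFP-low values. In Adamdec1 fibroblasts 4 of the 20 members counted were lower in the GFP-low libraries and none was higher, where 2.15% of all genes were lower and 0.998% higher (3.15% in either direction). Cxcl2 had 104 and 309 in GFP-low replicates 1 and 2, against 937 in whole mesenchyme. Cxcl10 had 1065 and 1120.2 in the GFP-low libraries, against 2355, and Ccl2 had 543 and 518, against 1391. Ccl21a had 0.62 and 0.224 in the GFP-low libraries, against 4.20 in whole mesenchyme, whose free RNA held 144 CPM of it. It had 5 and 2 UMIs in the GFP-low libraries and was included through whole mesenchyme alone, so only a lower level could be seen. In the same order the NF-kB list summed to 2575, 2772 and 4668 in these cells and the dissociation list to 29687, 32694 and 42198. These cells came mostly from different clusters in each library, as given above, and only whole mesenchyme was stained with antibodies, so sort, cluster and handling cannot be told apart.

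In Cd81-high fibroblasts, of 19 members counted Cxcl5 was higher in the GFP-low libraries, with 4.82 and 2.12 against 1.01 in whole mesenchyme on 3 UMIs. Cxcl5 was included through the GFP-low libraries alone, so only a higher level could be seen. Ccl5 was lower, with 0.674 and 2.48 against 10.1 on 30 UMIs. Of all genes 0.841% were higher and 1.53% lower there (2.37% in either direction). Cxcl1 did not stand apart, because the GFP-low libraries themselves differed 4.55-fold, with 803 in replicate 1 and 3657 in replicate 2, and whole mesenchyme lay between them at 2246. Cxcl2 had 24.1 and 98.9 in the GFP-low libraries, against 151 in whole mesenchyme, with a 4.10-fold gap between the GFP-low replicates. The ratio of replicate 2 to replicate 1 was 1.02 for Ccl11, 1.24 for Ccl7 and 0.62 for Cxcl12.

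The 20 rows under the limit were thin in every class. There were 12 rows with no UMI in any cell, among them Ccl24, Ccl26, Ccl22, Cxcl15, Ccl27b and the copy rows of Ccl19, Ccl21a, Ccl21b and Ccl27. The other 8 held 4 to 29 UMIs over all libraries: Ccl12 with 29, Ccl28 with 18, Ccl1 with 13, 1 row of Ccl21c with 12, Ccl9 with 11, Ccl20 with 9, Ccl17 with 6 and Cxcl17 with 4. A count of 0 here does not mean absence, since 3 UMIs over all cells could have been missed. For the copy rows, reads may also have been split or lost between near-identical copies, so their 0 need not reflect depth.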

How the data were processed

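Per the submitters' processing notes, the authors used Cell Ranger 3.0.2 and mm10, and the deposited values are raw UMI counts per gene and barcode for 6794880 barcodes, with no cell calling in these files. Aligner settings and strand handling were not at hand. About 8000 cells were loaded per library, per the labels. Cells were filtered, thinned copies drawn and clusters made with scanpy 1.11.5 and leidenalg 0.10.2 (2000 variable genes, 30 components, 15 neighbours, resolution 1) on 15543 genes, keeping 15510 genes out. A cluster was named by at least 3 of 135 marker genes of 18 types raised 1.5-fold, and 22 clusters resulted. Sums of at least 20 cells per library and class were tested with R 4.3.3 and edgeR 4.0.16 (TMM, filterByExpr, library as block, since both classes come from the same library). Tests on simulated data recovered 89.8% of 2-fold and 100% of 4-fold changes among 6254 genes for Cd81-high against Adamdec1, and 88.9% and 100% among 5166 genes for Pi16-positive cells. The simulation gave every gene the same dispersion and class differences that did not vary between libraries. Its recovery need not hold for members that vary more, such as Cxcl1. Poisson and Clopper-Pearson intervals are at 95%. Members tested and the highest of each class are named, with up to 3 called genes per list whose libraries all moved one way. Members and lists were chosen with earlier results of these data known. Alternatives were other size factors, DESeq2 1.42.0, no filter, thinning, another resolution, a marker gate per cell (which gave the same class to 78.7%, 87.2% and 77.0% of cells), doublet scores, no block, leaving out each library and, added after seeing the data, moving the shallow clusters. The values of 1 chemokine receptor are not reported here.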

Additional observations from a re-analysis of the deposited data

Results flagged for a closer look

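For 6 members the class differences pointed one way in both GFP-low libraries and the other way in whole mesenchyme. The differences between the sorts were not tested, and with a single whole mesenchyme library such a split can arise from 1 value. Differences are in CPM.

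Cxcl1 was higher in Cd81-high than in Adamdec1 fibroblasts by 23.7 in GFP-low replicate 1 and 1768 in replicate 2, and differed by -642 in whole mesenchyme. Ccl2 was higher by 25.1 and 406 in the GFP-low replicates and differed by -73.0 in whole mesenchyme. Ccl27a differed by -0.68 and -3.54 in the GFP-low replicates and by 1.40 in whole mesenchyme. Ccl25 differed by -5.12 and -3.00 in the GFP-low replicates and by 0.31 in whole mesenchyme. Ccl5 differed by -2.92 and -0.88 in the GFP-low replicates and by 6.57 in whole mesenchyme. Ccl11 differed between Pi16-positive and other Cd81-high fibroblasts by -12.4 and -83.1 in the GFP-low replicates and by 234 in whole mesenchyme, where Pi16-positive cells numbered 24.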

How the results depend on the processing

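Of the 12 members called between Cd81-high and Adamdec1 fibroblasts 9 kept the call under every alternative, and Ccl11, Ccl4 and Cxcl2 lost it under some (Ccl11 only without the library block). Of the 11 called in Pi16-positive cells 3 kept it (Cxcl12, Cxcl13 and Cxcl9), and Ccl2, Ccl7, Ccl8, Cxcl1, Cxcl2, Cxcl10, Cxcl14 and Cxcl16 lost it under some. In the first comparison, 2 members rose with no filter on low counts and 3 without whole mesenchyme. Over all genes 418 rose and 422 fell after thinning, and 372 and 446 without the replicate block (the library). In the second, 4 members fell after thinning, and 0 rose and 4 fell without the block. Over all genes 198 rose and 284 fell with DESeq2, 103 and 158 after thinning and 72 and 116 without the block. Leaving out a GFP-low replicate gave 231 to 249 rises and 349 to 388 falls. The cause of these moves was not tested, beyond the fewer genes tested after thinning (5095 and 2765).

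None of the members whose sign changed was called in the main comparison. For Cd81-high against Adamdec1, Ccl27a was 0.13 after thinning and between -0.084 and 0.094 when 1 library was left out. Ccl19 was 0.0025 with DESeq2 size factors, 0.26 at resolution 2, 0.26 with the marker gate, 0.15 without the block and between -0.18 and 0.20 when 1 library was left out. Cxcl1 was 0.38 and -0.098 without GFP-low replicates 1 and 2 and 0.64 without whole mesenchyme. Cxcl10 was 0.0068 and -0.27 without GFP-low replicates 1 and 2 and 0.053 without whole mesenchyme. Ccl5 was 0.19 with the marker gate, 0.062 without the block and 0.62 and -0.036 without GFP-low replicates 1 and 2. In Pi16-positive cells, Ccl11 was 0.0027 with DESeq2, 0.000802 after thinning, 0.018 with the shallow unnamed cluster, 0.021 and 0.085 without GFP-low replicates 1 and 2, and 0.0083 without the highest doublet scores. Without those scores 9 members reached 20 UMIs in blood endothelium, and with the marker gate 13 did in pericytes. With that gate 0 members were higher and 3 lower in GFP-low Cd81-high fibroblasts than in whole mesenchyme. At resolution 2 GFP-low replicate 2 had 17 Pi16-positive cells, so that comparison was not run.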

Other observations

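Chemokine receptors stood at higher CPM in T or innate lymphoid cells than in Cd81-high fibroblasts. Cxcr6, the receptor of Cxcl16, stood at 421 and 448 CPM in GFP-low replicates 1 and 2. Ccr2, the receptor of Ccl2 and Ccl7, stood at 89.9 and 117, and Cxcr3, the receptor of Cxcl9 and Cxcl10, at 86.1 and 60.9. Xcl1, a ligand outside the name rule that lymphocytes make, stood at 80.5 and 21.7. The 19 receptors summed to 779 and 878 in these cells, and to 23.4, 35.8 and 59.4 in Cd81-high fibroblasts of the 3 libraries. These classes are 83 and 35 cells.

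Lymphatic endothelium carried atypical receptors beside its Ccl21a, with 523 CPM of Ackr3 and 324 of Ackr2 in 60 cells of whole mesenchyme. Blood endothelium held 68.9 of Ackr1.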
